A study of Mus musculus with 15 samples.

Results

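The data describe the response of the C57 neonatal mouse liver to hyperoxia, in 8 of the 15 bulk RNA-seq libraries of the series. The members were chosen by their labels alone: 4 livers of C57 pups kept in 75% oxygen from postnatal day 7 to day 12 (C57 hyperoxia) and 4 livers of C57 pups of the same age kept in room air (C57 normoxia). The other 7 libraries are BALBc livers under the same regime, 4 from hyperoxia and 3 from normoxia; they enter the fit for its estimate of the spread and for a comparison of the strains. The exposure is that of oxygen-induced retinopathy, a model in which C57 pups are the susceptible strain, and the series asked what in the metabolism of the liver differs between susceptible and resistant strains. All pups breathed room air until day 7. The labels name no substrain and no mutant or transgenic allele, and do not say whether a library came from a single pup, so p-values measure the spread between these libraries.

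The liver makes most plasma proteins, including albumin, the protease inhibitors and the carriers of free haemoglobin and haem. It also makes hepcidin, the peptide hormone that closes the iron exporter ferroportin and so lowers plasma iron. Kupffer cells, the resident liver macrophages, clear old red cells and particles and break down haem through haem oxygenase. Oxygen is sensed by prolyl hydroxylases, which mark hypoxia-inducible factor (HIF) for degradation, and glycolysis enzymes are among the best known HIF targets.

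The C57 libraries rested on 1.49e+07 to 1.62e+07 fragments each, recovered from the steps between low values. Of values at up to 30 fragments, 98.3% to 98.7% were whole multiples of 1 fragment within 0.05. The libraries fell into separate kinds in how they recorded rare transcripts. Among genes with 1 to 10 fragments, those with a lone fragment made up 29.8 to 33.00% in the hyperoxia livers, against 10.8, 18.2 and 11.1% in C57 normoxia 1, 2 and 3 and 32.9% in C57 normoxia 4. Genes above 0 numbered 21285 to 21829 in the hyperoxia livers, against 16011 to 17287 in C57 normoxia 1 to 3 and 21216 in C57 normoxia 4. Libraries above 25% on this share are called the many-singletons class below. It holds all 4 hyperoxia and 1 of 4 normoxia libraries of C57, and 1 of 4 hyperoxia and 1 of 3 normoxia libraries of BALBc, so in C57 it overlaps with oxygen, and its part in the results was not tested beyond the values given beside them. Replicates correlated at 0.984 to 0.986 within C57 hyperoxia and at 0.948 to 0.966 within C57 normoxia (Pearson, log2 scale, across genes, which are not independent replicates). Xist, the RNA of the inactive X chromosome, was above 1 FPKM in 1 hyperoxia liver and in 2 normoxia livers. Transcripts of exocrine pancreas varied widely within both groups of C57 livers. The 10 pancreas markers summed to 1.36 to 90.1 FPKM in hyperoxia (median 5.34) and 0.0156 to 66.3 FPKM in normoxia (median 2.09). Pancreas tissue as a source was not tested. The tissue label held: Alb, which encodes albumin, ranged over 4.92e+04 to 5.22e+04 FPKM in hyperoxia and 4.20e+04 to 5.91e+04 FPKM in normoxia, and none of 20 hepatocyte markers was under 1 FPKM in all 8 libraries.

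**Figure D1:**
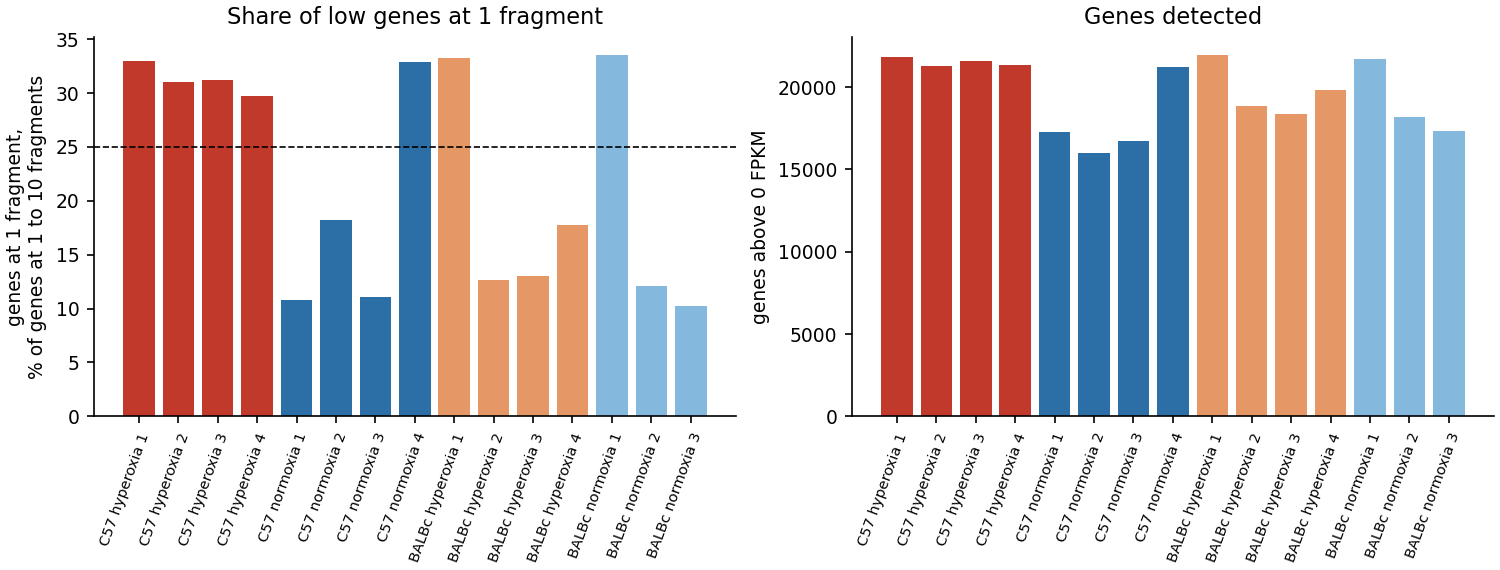
Share of genes at 1 fragment among genes at 1 to 10 fragments (left, percent, dashed line at 25%) and number of genes above 0 FPKM (right) in each of the 15 libraries, 1 bar a library. The 4 C57 hyperoxia bars and C57 normoxia 4 stand above the line, and C57 normoxia 1 to 3 stand below it with fewer genes detected.

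Few genes passed the test between C57 hyperoxia and C57 normoxia livers, and most of those that passed were lower in hyperoxia. FPKM is the number of fragments scaled to exon length and to the size of the library. Of 12133 genes with at least 1 FPKM in at least 3 of the 8 libraries, 127 passed an adjusted p of 0.05 (1.05%), 32 of them higher (0.264%) and 95 lower (0.783%) in hyperoxia. The test was limma on log2(FPKM + 1) with 1 mean per group over all 15 libraries and Benjamini-Hochberg adjustment over all genes. Before adjustment, 1789 of the 12133 genes had a limma p under 0.05, so genes that did not pass are not shown to be unchanged. Every log2 change below is hyperoxia minus normoxia on that scale, which understates the change of genes near 1 FPKM, and "called" means past this threshold. On that scale 20 of the 127 moved at least 2-fold, 10 in each direction. The 4 hyperoxia livers stood wholly above or wholly below the 4 normoxia livers in 126 of the 127, against 975 of all genes tested (8.04%), 413 above (3.40%) and 562 below (4.63%). Counts within gene lists below are to be read beside these shares of all genes. The genes that fell had a median of 20.95 FPKM in hyperoxia and 32.2 FPKM in normoxia and 2099 bases of exon. The genes that rose had a median of 10.1 FPKM in hyperoxia and 5.81 FPKM in normoxia and 3235.5 bases of exon, beside 3842 bases over all genes tested.

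The number called moved with single libraries. It was 38, 59, 53 and 57 without C57 hyperoxia 1, 2, 3 and 4, 74 without C57 normoxia 2, 80 without BALBc hyperoxia 3 and 249 without C57 normoxia 4. In every one of the 15 fits that left out a library, 33 of the 127 were called. With the many-singletons class as a term, 13 genes were called (0.107%), 11 of them among the 127. These included Marco, Lyz2, Aldoa, Hmox1, Hp, Fabp4 and Ppm1n, which were lower, and Serpina3k, Rnf125 and Irf7, which were higher. Of these, Ppm1n reached 1 FPKM in normoxia livers only and passed the filter through that group. All 127 kept their sign in that fit, as did 9598 of the 12133 genes tested, and both fits share the libraries that chose the 127. The split of 32 higher against 95 lower became 54 against 85 under quantile normalization.

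**Figure D2:**
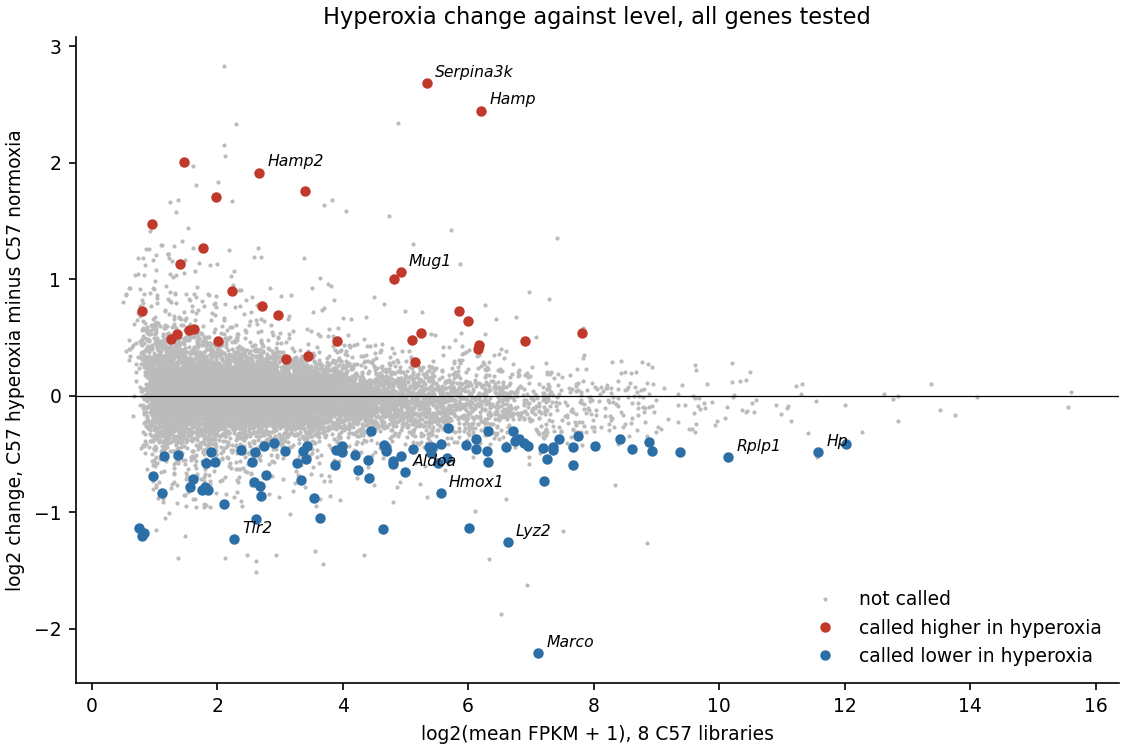
Log2 change of each gene tested (C57 hyperoxia minus C57 normoxia, log2(FPKM + 1) scale) against the log2 of its mean FPKM + 1 over the 8 C57 libraries; each point is a gene, red called higher, blue called lower and grey not called. Marco lies lowest among the called genes, at -2.21, and Serpina3k and Hamp lie highest, at 2.68 and 2.45.

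Among the genes that fell, the macrophage gene Marco had the largest change. Marco, a scavenger receptor that binds bacteria and particles, had 39.6, 79.9, 48.8 and 30.9 FPKM in the hyperoxia livers, against 316, 182, 224 and 185 FPKM in the normoxia livers. Every hyperoxia liver lay below every normoxia liver, and the log2 change was -2.21 (SE 0.25, limma adjusted p = 0.0016). Lyz2, the lysozyme of macrophages and neutrophils, had 68.2, 63.5, 52.6 and 45.6 FPKM in hyperoxia, against 166, 119, 135 and 134 FPKM in normoxia. The groups again did not overlap, at a log2 change of -1.26 (SE 0.15, adjusted p = 0.0016). Spic, the transcription factor of macrophages that recycle red cell iron, had 1.49, 1.58, 1.27 and 1.47 FPKM in hyperoxia and 3.36, 3.300, 3.66 and 2.898 FPKM in normoxia (log2 change -0.81, SE 0.13, adjusted p = 0.010). Marco, Lyz2 and Spic were called without each library in turn, while Spic lost its call with the class term (limma adjusted p = 0.083). Cd209f, a C-type lectin, and Fcer1g, the shared signalling chain of Fc receptors, fell by 1.05 and 0.58 on the log2 scale, with the call lost in 4 and 5 of the 15 leave-one-out fits.

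These falls did not run through the whole macrophage list. Of 28 Kupffer cell and macrophage markers tested, 5 fell (beside 0.783% of all genes), 1 rose (beside 0.264%) and 22 did not pass. Before adjustment 17 of the 28 had a limma p under 0.05, beside 1789 of the 12133 genes tested. Changes were below 0 in 18 markers and above 0 in 10. In 9 all hyperoxia livers lay below (beside 4.63% of all genes) and in 1 all lay above (beside 3.40%). The median log2 change was -0.25, beside -0.00 over all genes. The marker that rose was Clec4f, the lectin that marks Kupffer cells in mice, at 96.3, 78.6, 72.9 and 79.4 FPKM in hyperoxia and 65.1, 55.8, 64.8 and 54.4 FPKM in normoxia (log2 change 0.44, SE 0.10, adjusted p = 0.045, lost in 12 of 15 fits). C1qa and C1qc, complement subunits that macrophages make, had non-overlapping groups, log2 changes of -0.44 and -0.40, and adjusted p of 0.087 and 0.10. Adgre1, which encodes F4/80, ranged over 12.02 to 15.3 FPKM in hyperoxia and 9.64 to 17.4 FPKM in normoxia. Summed over the list, the level was 821 to 977 FPKM in hyperoxia and 1118 to 1581 FPKM in normoxia. This sum includes Marco and Lyz2, with means of 49.8 and 57.5 FPKM in hyperoxia and 227 and 138 FPKM in normoxia. It is therefore not separate from the falls above. In a bulk liver library, fewer cells of a type and less RNA per cell cannot be told apart. With the class term the list median was -0.14, and against C57 normoxia 4 alone it was -0.11.

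**Figure D3:**
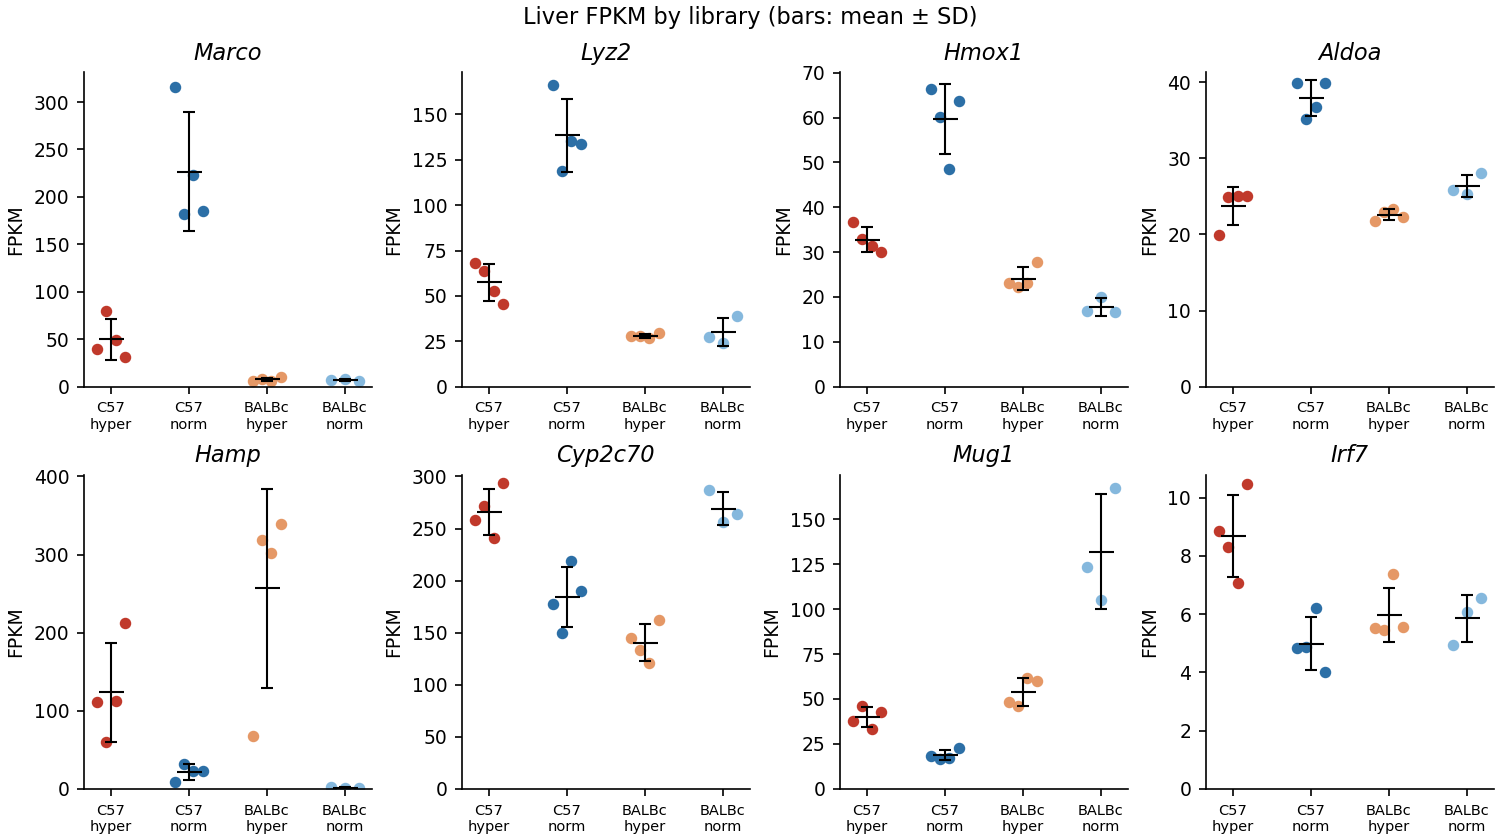
FPKM of 8 genes in every library, with a point for each library and bars for mean ± SD, in the order C57 hyperoxia, C57 normoxia, BALBc hyperoxia, BALBc normoxia (n = 4, 4, 4 and 3). Marco, Lyz2, Hmox1 and Aldoa are lower and Hamp, Cyp2c70, Mug1 and Irf7 higher in C57 hyperoxia than in C57 normoxia, with no overlap, while Cyp2c70 and Mug1 run the other way in BALBc.

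Of 30 inflammatory and NF-kB genes 21 were tested. Tlr2, Ncf4 and Nfkbia fell (beside 0.783% of all genes), none rose and 18 did not pass. Tlr2, the receptor for bacterial lipoproteins, had 2.001, 2.24, 1.49 and 1.58 FPKM in hyperoxia, against 8.99, 4.0, 5.100 and 5.28 FPKM in normoxia (log2 change -1.23, SE 0.18, adjusted p = 0.0050). Ncf4, a cytosolic subunit of the phagocyte NADPH oxidase, averaged 1.95 ± 0.337 FPKM in hyperoxia and 4.67 ± 1.05 FPKM in normoxia (SD, n = 4 each; log2 change -0.93, SE 0.14). Both genes were called without each library. Nfkbia, the inhibitor that NF-kB itself induces, had 13.2 to 16.8 FPKM in hyperoxia and 21.8 to 29.1 FPKM in normoxia (log2 change -0.71, SE 0.15, adjusted p = 0.042, lost in 9 of 15 fits). In 8 of the list all hyperoxia livers lay below, beside 4.63% of all genes. The list median was -0.27, or -0.25 with the class term, where 0 were called. Relb, Nfkb2 and Cd14, with log2 changes of -0.49, -0.44 and -0.67, had non-overlapping groups and adjusted p of 0.076, 0.084 and 0.087. Fgr, a Src-family kinase of myeloid cells, fell by 0.81 on the log2 scale. Of the neutrophil markers, 0 of 9 tested were called (limma, 2 with an unadjusted p under 0.05), and the whole list summed to 52.9 to 90.2 FPKM in hyperoxia and 64.1 to 125 FPKM in normoxia.

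Some called genes were picked out after their values were seen, the first 3 of them near the floor of detection in 1 group of C57 livers. Acod1, Ppm1n, Gm44478 and Aoah reached 1 FPKM in 1 group of C57 livers only. They passed the filter only through the group where they were high, so their calls are given as description. Acod1, the macrophage enzyme that makes itaconate, had 0.0479, 0, 0.102 and 0 FPKM in hyperoxia, which is 2, 0, 4 and 0 fragments, against 3.13, 1.202, 1.02 and 0.674 FPKM in normoxia, which is 132, 51, 43 and 27 fragments. In BALBc livers it held 0 fragments in all 4 hyperoxia livers and 0 to 2 in normoxia. Ppm1n, a protein phosphatase gene, had 0.0281, 0.0592, 0.06002 and 0.0832 FPKM in hyperoxia, or 1 to 3 fragments, and 1.36, 1.33, 1.33 and 1.26 FPKM in normoxia, or 43 to 49 fragments. The 4 normoxia livers were close to each other and far from every hyperoxia liver, while BALBc held 0 to 10 fragments in hyperoxia and 0 to 4 in normoxia. The processed pseudogene Gm44478 ran the other way, with 5, 13, 2 and 5 fragments in hyperoxia, and was listed at 0 in all 4 normoxia livers and all 7 BALBc livers. At higher fragment numbers, Aoah, a lipase that inactivates bacterial lipopolysaccharide, had 0.441 to 0.647 FPKM in hyperoxia and 1.304 to 2.63 FPKM in normoxia, and the chemokine gene Ccl6 had 5.04 to 7.47 FPKM in hyperoxia and 8.85 to 14.5 FPKM in normoxia.

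Hmox1, Hp and Hpx, genes of haem breakdown and of the plasma carriers of haemoglobin and haem, fell. Hmox1, the haem oxygenase that opens the haem ring and releases iron and carbon monoxide, had 36.7, 32.8, 31.4 and 30.1 FPKM in hyperoxia, against 66.3, 60.1, 48.6 and 63.8 FPKM in normoxia (log2 change -0.84, SE 0.10, adjusted p = 0.0020). Hp, the plasma carrier of free haemoglobin, averaged 2543 ± 153 FPKM in hyperoxia and 3557 ± 208 FPKM in normoxia (SD, n = 4 each; log2 change -0.48, SE 0.06). Hpx, the carrier of free haem, averaged 3532 ± 105 FPKM in hyperoxia and 4749 ± 669 FPKM in normoxia (SD, n = 4 each; log2 change -0.42, SE 0.08). Hmox1 and Hp were called without each library, and Hpx lost its call in 5 of 15 fits. Of 19 genes of haem breakdown, scavenging and synthesis, 3 fell (beside 0.783% of all genes) and 16 did not pass. Alas1, the rate-limiting enzyme of haem synthesis in liver, had a log2 change of -0.61 (SE 0.18, adjusted p = 0.12). Blood cell transcripts leaned the same way without a call: 0 of 15 erythroid markers passed (limma, 2 with an unadjusted p under 0.05), 13 of 15 changes were below 0, and the list summed to 1325 to 3003 FPKM in hyperoxia and 1653 to 3449 FPKM in normoxia. Their part in the haem genes was not tested.

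Hepcidin rose. Mice carry a pair of neighbouring hepcidin genes, Hamp and Hamp2, and their promoters are printed here because these are the genes of the hepcidin list that were called. The stretches run from 250 bases before to 50 bases after the transcription start (RefSeq, GRCm38.p6, minus strand, chr7:30943980-30944279 for Hamp and chr7:30924132-30924431 for Hamp2). Capitals mark the core of the BMP response element, GGCGCC, and a STAT site, TTCNNNGAA, searched on both strands.
Hamp: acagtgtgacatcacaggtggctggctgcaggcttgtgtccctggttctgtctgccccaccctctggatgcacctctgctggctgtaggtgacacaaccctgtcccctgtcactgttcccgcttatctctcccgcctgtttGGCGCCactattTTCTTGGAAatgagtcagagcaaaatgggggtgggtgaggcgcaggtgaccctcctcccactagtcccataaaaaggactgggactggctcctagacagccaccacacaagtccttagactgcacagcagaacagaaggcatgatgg
Hamp2: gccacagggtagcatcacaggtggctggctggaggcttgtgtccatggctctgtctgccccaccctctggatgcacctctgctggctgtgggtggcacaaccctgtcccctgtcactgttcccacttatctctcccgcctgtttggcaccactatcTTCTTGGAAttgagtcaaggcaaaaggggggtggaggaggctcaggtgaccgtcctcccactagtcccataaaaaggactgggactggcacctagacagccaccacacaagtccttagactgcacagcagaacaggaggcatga
The Hamp window held 1 match of each motif, beginning at -109 and -97 from the start, and the Hamp2 window held the STAT site only, at -94. Over 297 aligned bases the windows were 92.9% identical, and the bases of Hamp2 that align with the BMP core differ from it by G4A, counted from 1 at the 5′ end of the core. GGCGCC is in 11.9% and TTCNNNGAA in 8.37% of 27025 promoters of this length. Among the 8798 promoters of genes tested the shares are 21.6% and 6.64%. A match is a description of the letters, not a site shown to be bound.

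Hamp had 111, 59.7, 113 and 212 FPKM in the hyperoxia livers, against 8.49, 31.8, 23.4 and 23.3 FPKM in the normoxia livers. The groups did not overlap, and the log2 change was 2.45 (SE 0.51, adjusted p = 0.036). The call was lost in 6 of 15 leave-one-out fits, those without C57 hyperoxia 1, 3 or 4, C57 normoxia 1 or 3, or BALBc hyperoxia 3, with an adjusted p of up to 0.12. It was also lost with the class term (limma adjusted p = 0.083) and on the 8 C57 libraries alone (0.072). Hamp2 had 9.05, 6.01, 3.11 and 18.4 FPKM in hyperoxia and 0.959, 0.106, 3.08 and 2.13 FPKM in normoxia (log2 change 1.92, SE 0.42, adjusted p = 0.041, lost in 12 of 15 fits). The lowest hyperoxia and the highest normoxia liver nearly met, and so similar a pair can share reads. Of 22 genes of hepcidin and BMP-SMAD signalling tested, 2 rose (beside 0.264% of all genes), both of them hepcidins, and none fell. The BMP-SMAD targets Id2 and Smad7 and the ligand Bmp2 had log2 changes of 0.35, 0.33 and 0.39 with adjusted p of 0.12, 0.24 and 0.16. Among 18 iron transport and storage genes 0 were called (limma, 7 with an unadjusted p under 0.05). Tfrc, the transferrin receptor, had 15.7 to 29.2 FPKM in hyperoxia and 30.97 to 43.1 FPKM in normoxia (log2 change -0.78, SE 0.19, adjusted p = 0.075).

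Several glycolysis enzymes fell, at steps from glucose-phosphate isomerase to pyruvate kinase. Of 25 genes in the list 21 were tested. Of these 7 fell (beside 0.783% of all genes), none rose and 8 had all hyperoxia livers below (beside 4.63%). The median log2 change was -0.25. Aldoa, the aldolase of muscle and most other tissues, had 19.98, 24.9, 24.99 and 25.1 FPKM in hyperoxia and 39.9, 35.1, 36.8 and 39.8 FPKM in normoxia (log2 change -0.66, SE 0.08, adjusted p = 0.0016). The groups did not overlap, with C57 hyperoxia 1 the lowest. Gpi1, Tpi1 and Eno1, the enzymes of the glucose-phosphate isomerase, triose-phosphate isomerase and enolase steps, fell by 0.45, 0.44 and 0.47 on the log2 scale. Pkm, the pyruvate kinase of tissues other than liver, fell by 0.60, Pfkl, the liver phosphofructokinase, by 0.43, and Aldoc, a further aldolase, by 0.78. Aldoa, Eno1, Tpi1 and Gpi1 were called without each library, while Pkm, Aldoc and Pfkl lost the call in 2, 9 and 10 of 15 fits. The list median was -0.18 with the class term, where 1 member was called, and -0.26 against C57 normoxia 4 alone.

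Promoters of the 7 glycolysis genes that fell were searched for the core of the hypoxia response element, ACGTG or GCGTG, on both strands. It was in 3 of the 7 (42.9%), and these 3 are printed as the called genes that hold the letters, with matches in capitals, where CACGC and CACGT are the core on the opposite strand (RefSeq, GRCm38.p6): Eno1 at chr4:150236458-150236757, plus strand, Aldoc at chr11:78322823-78323122, plus strand, and Pfkl at chr10:78009758-78010057, minus strand.
Eno1: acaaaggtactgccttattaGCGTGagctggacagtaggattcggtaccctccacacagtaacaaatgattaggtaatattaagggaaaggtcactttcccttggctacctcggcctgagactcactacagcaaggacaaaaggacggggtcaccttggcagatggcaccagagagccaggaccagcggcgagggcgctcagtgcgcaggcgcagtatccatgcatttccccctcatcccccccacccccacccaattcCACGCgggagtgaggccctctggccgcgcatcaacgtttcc
Aldoc: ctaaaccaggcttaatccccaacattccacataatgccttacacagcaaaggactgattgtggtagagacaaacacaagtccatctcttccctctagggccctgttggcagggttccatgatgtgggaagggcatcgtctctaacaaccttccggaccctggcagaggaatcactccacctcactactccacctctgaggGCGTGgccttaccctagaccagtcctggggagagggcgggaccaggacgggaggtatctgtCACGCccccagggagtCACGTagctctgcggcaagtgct
Pfkl: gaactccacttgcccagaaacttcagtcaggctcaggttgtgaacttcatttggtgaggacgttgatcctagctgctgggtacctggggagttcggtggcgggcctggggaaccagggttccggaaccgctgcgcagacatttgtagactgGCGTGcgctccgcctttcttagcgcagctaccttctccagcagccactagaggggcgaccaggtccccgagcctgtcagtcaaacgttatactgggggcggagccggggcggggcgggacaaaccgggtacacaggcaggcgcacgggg
The core was in 12 of 18 promoters of glycolysis genes tested (66.7%), in 63.0% of 8798 promoters of genes tested and in 43.6% of all 27025. Among called genes it was in 7 of 20 promoters of those that rose (35.0%) and in 40 of 73 of those that fell (54.8%). Aldoa, Gpi1, Pkm and Tpi1 had no match, which says only that these letters are not in this window.

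The RNAs of the HIF system itself held no call. Hif1a, the oxygen-regulated subunit, had 5.38, 5.35, 5.55 and 5.43 FPKM in hyperoxia and 5.48, 4.15, 4.74 and 6.21 FPKM in normoxia, and the groups overlapped. Epas1, which encodes a second such subunit, had 40.6 to 45.5 FPKM in hyperoxia and 37.5 to 47.6 FPKM in normoxia. Of 11 subunits and sensors 0 were called (limma, 4 with an unadjusted p under 0.05), with a median of -0.00. Egln1 and Egln3, prolyl hydroxylases, had log2 changes of -0.19 and -0.53 with adjusted p of 0.55 and 0.15. Vhl, whose product marks HIF for degradation, had 5.54 to 6.51 FPKM in hyperoxia and 6.97 to 10.5 FPKM in normoxia (adjusted p = 0.080). Of 29 HIF targets in a separate list 2 were called lower (beside 0.783% of all genes) and none higher. These were Hmox1 and Ak4, an adenylate kinase of mitochondria that lost its call in 11 of 15 fits. The list median was -0.16, and 23 changes were below 0, beside 50.2% of all genes. In 5 all hyperoxia livers lay below (beside 4.63%), and 11 had an unadjusted limma p under 0.05. Angptl4, a secreted inhibitor of lipoprotein lipase, had a log2 change of -0.68, overlapping groups and an adjusted p of 0.14.

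The cytosolic ribosomal protein genes leaned downward, and a minority of them were called. Of 47 tested, 12 were called lower (beside 0.783% of all genes) and none higher, and 30 had all hyperoxia livers below all normoxia livers (beside 4.63%). Before adjustment 38 of the 47 had a limma p under 0.05, beside 1789 of the 12133 genes tested. The median log2 change was -0.30, and 46 of 47 changes were below 0, beside 50.2% of all genes. Rplp1, a stalk protein of the large subunit, had 897, 967, 865 and 960.4 FPKM in hyperoxia and 1208, 1384, 1338 and 1390.3 FPKM in normoxia (log2 change -0.53, SE 0.08, adjusted p = 0.0050). Rpsa, of the small subunit, averaged 139 ± 5.77 FPKM in hyperoxia and 188 ± 3.61 FPKM in normoxia (SD, n = 4 each; log2 change -0.44). Rplp1, Rpsa and Rpl19 were called without each library, while Rpl14 and Rpl12 were called in 2 of 15 fits each. The list summed to 6496 to 7062 FPKM in hyperoxia and 7873 to 9703 FPKM in normoxia, the highest of them C57 normoxia 4. With the class term the median was -0.40 with 0 genes called, and against C57 normoxia 4 alone it was -0.53. Ribosomal protein genes have processed pseudogenes that can share their reads, and the pseudogenes Rps2-ps13 and Rpsa-ps10, named after their values were seen, fell as well.

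Nuclear genes of the respiratory chain leaned the same way by less. Of 50 tested 1 fell, 41 changes were below 0 and the median was -0.11. The gene that fell was Atp5k, a subunit of ATP synthase, with 48.2 to 54.8 FPKM in hyperoxia and 63.1 to 74.2 FPKM in normoxia (log2 change -0.43, SE 0.09, adjusted p = 0.034, lost in 7 of 15 fits). The transcripts of the mitochondrial genome gave no call (0 of 13, limma, 3 with an unadjusted p under 0.05). mt-Atp6, a subunit of ATP synthase, had 269, 199, 311 and 146 FPKM in hyperoxia and 70.4, 53.1, 58.2 and 252 FPKM in normoxia. C57 normoxia 4 lay within the hyperoxia range and the other normoxia livers below it. The median of the 13 was 0.10, -0.21 with the class term and -0.41 against C57 normoxia 4 alone.

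Plasma protease inhibitors and other secreted proteins moved in both directions. Among 23 acute phase proteins tested 3 rose, Serpina3k, Mug1 and Mug2 (beside 0.264% of all genes), and 2, Hp and Hpx, fell (beside 0.783%). The other 18 did not pass, and the list median was 0.06, with 13 changes above 0 and 10 below. Saa1, Saa2, Lcn2 and Serpina3n, with log2 changes of 0.50, 0.50, -0.69 and -0.28, were not called and had overlapping groups. Serpina3k, a serine protease inhibitor, had 40.1, 102, 83.1 and 46.4 FPKM in hyperoxia, against 5.17, 9.32, 24.9 and 4.997 FPKM in normoxia. This was the largest rise among the called genes, at a log2 change of 2.68 (SE 0.39, adjusted p = 0.0050). Its paralogue Serpina3g fell to 5.96 to 8.303 FPKM in hyperoxia against 10.3 to 19.2 FPKM in normoxia (log2 change -0.88, SE 0.16, adjusted p = 0.018). Mug1, a murinoglobulin that traps proteases, had 37.9, 46.2, 33.3 and 42.7 FPKM in hyperoxia and 18.2, 16.5, 17.3 and 22.8 FPKM in normoxia (log2 change 1.06, SE 0.15, adjusted p = 0.0050). Every hyperoxia liver was above every normoxia liver for both genes that rose so far. Mug2 averaged 3.804 ± 1.07 FPKM in hyperoxia and 1.004 ± 0.524 FPKM in normoxia (SD, n = 4 each). Serpina3k, Mug1 and Mug2 were called without each library, and close paralogues of both families can share reads. With the class term Mug1 and Mug2 lost the call (limma adjusted p of 0.052 and 0.067). On the 8 C57 libraries alone Serpina3k and Mug2 lost it (0.072 each).

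Fmo1, Cyp2c70, Ces3a and Sult2a8, enzymes of hepatocytes, rose, while the lists of drug and bile acid metabolism held few calls. Of 21 genes of bile acid synthesis and transport 0 were called (limma, 5 with an unadjusted p under 0.05), with a median of 0.04. Cyp2c70 was the 1 gene called among 32 cytochrome P450 and other targets of the drug sensors CAR and PXR, and Ces3a the 1 among 11 carboxylesterases, with list medians of 0.05 and 0.12. Fmo1, a flavin monooxygenase, had 34.9 to 40.1 FPKM in hyperoxia and 28.9 to 33.00 FPKM in normoxia (log2 change 0.29, SE 0.07, adjusted p = 0.048, lost in 14 of 15 fits). Cyp2c70, the cytochrome P450 that makes muricholic acids in mice, averaged 266 ± 22.2 FPKM in hyperoxia and 184 ± 28.7 FPKM in normoxia (SD, n = 4 each; log2 change 0.54). Ces3a, a carboxylesterase, rose by 0.73 on the log2 scale, and these 2 calls were lost in 6 and 7 of 15 fits. Sult2a8, a sulfotransferase of bile acids, rose by 0.64, with 71.7 to 81.05 FPKM in hyperoxia and 37.4, 45.7, 48.1 and 66.4 FPKM in normoxia, of which C57 normoxia 4 was nearest to the hyperoxia livers, and its call was lost in 10 of 15 fits. Akr1b7, an aldo-keto reductase, fell to 21.9, 12.7, 13.7 and 11.03 FPKM in hyperoxia, against 35.5, 31.95, 29.8 and 34.6 FPKM in normoxia (log2 change -1.14, SE 0.17, adjusted p = 0.0050). Akr1b7 is also an adrenal cortex marker. The 10 adrenal markers, Akr1b7 among them, summed to 71.3 to 88.7 FPKM in hyperoxia and 99.5 to 109 FPKM in normoxia. Of the 10, 6 were under 1 FPKM in all 8 libraries: Cyp11b1, Nr5a1 and Mc2r were at 0, and Cyp11a1, Cyp11b2 and Cyp21a1 reached at most 0.219. Star had 0.37 to 0.717 FPKM in hyperoxia and 0.451 to 1.19 FPKM in normoxia, and Hsd3b1 and Fdx1 also had overlapping groups. Adrenal tissue as a source was not tested.

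Interferon-stimulated genes leaned upward. Of 34 tested 2 rose, Rnf125 and Irf7 (beside 0.264% of all genes), and none fell. In all, 29 changes were above 0, 8 had all hyperoxia livers above (beside 3.40% of all genes) and the median was 0.22. Rnf125, a ubiquitin ligase that acts on RIG-I, had 42.7, 37.9, 30.6 and 35.7 FPKM in hyperoxia, against 16.3, 17.9, 15.1 and 22.5 FPKM in normoxia (log2 change 1.0, SE 0.13, adjusted p = 0.0020). Irf7, a main regulator of type I interferon genes, averaged 8.67 ± 1.41 FPKM in hyperoxia and 4.98 ± 0.909 FPKM in normoxia (SD, n = 4 each; log2 change 0.69, SE 0.13, adjusted p = 0.027, lost in 4 of 15 fits). Ifit2, Ifih1, Dhx58 and Oasl2 had non-overlapping groups, log2 changes of 0.72, 0.43, 0.68 and 0.58, and adjusted p of 0.052, 0.073, 0.078 and 0.080. The list median was 0.26 with the class term and 0.32 against C57 normoxia 4 alone. Of 21 antigen presentation genes 0 were called (limma, 3 with an unadjusted p under 0.05). Cell cycle genes also leaned upward without a call: 0 of 41 passed (limma, 12 with an unadjusted p under 0.05), 39 changes were above 0 and the median was 0.21. Top2a, the topoisomerase of dividing cells, had 6.07 to 8.69 FPKM in hyperoxia and 3.38 to 6.43 FPKM in normoxia (adjusted p = 0.15).

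**Figure D4:**
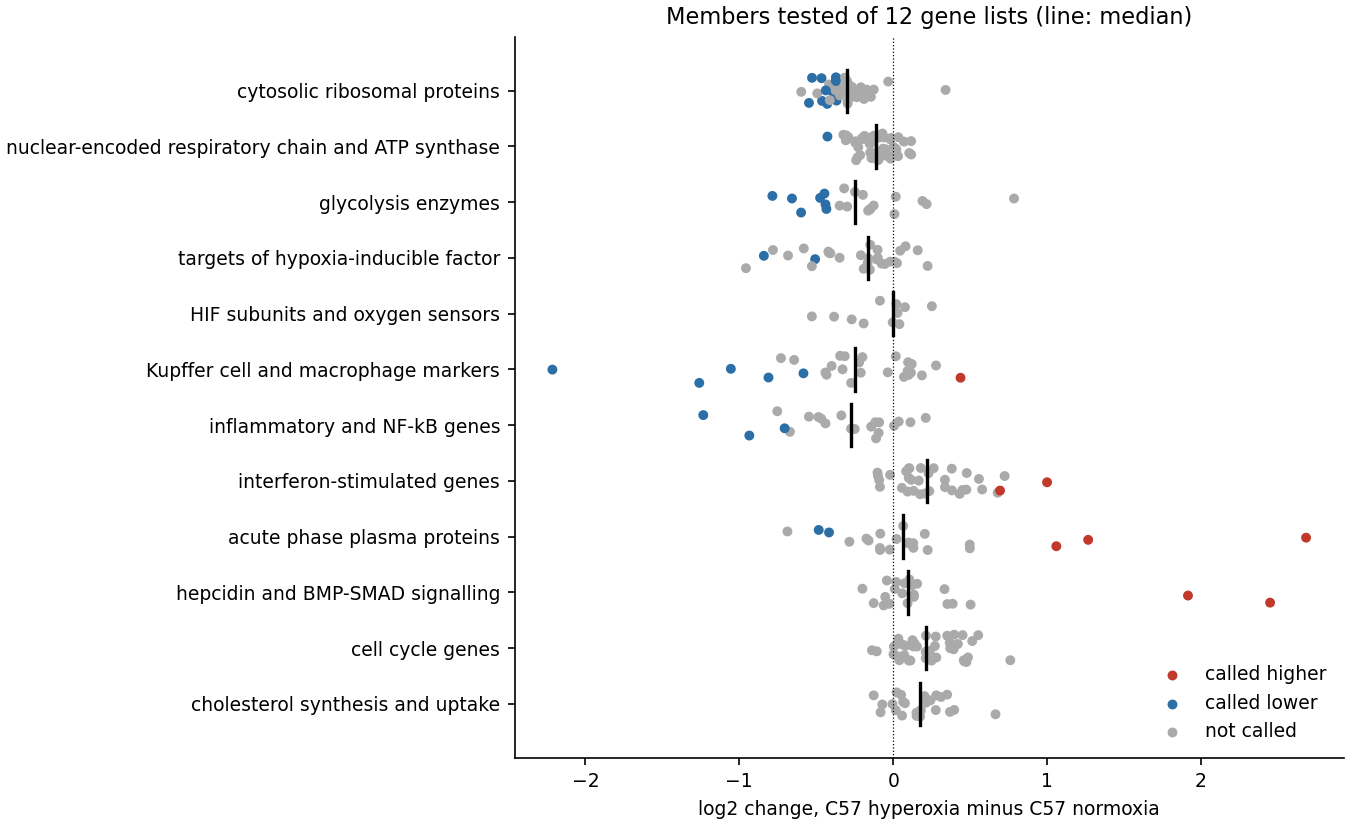
Log2 change (C57 hyperoxia minus C57 normoxia, log2(FPKM + 1) scale) of every member tested of 12 gene lists, 1 point a gene, spread vertically for sight only, with a black line at the list median. Ribosomal protein and glycolysis genes have medians of -0.30 and -0.25, interferon-stimulated and cell cycle genes have medians of 0.22 and 0.21, and the macrophage, acute phase and hepcidin lists each hold a few far points.

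The lists of lipid metabolism held few called genes. Outside the lists counted here, Soat1, Scd2, Gpihbp1 and Acot2 were also called lower, and were picked out after their values were seen. Their log2 changes were -0.57, -0.43, -0.48 and -0.46 (limma adjusted p of 0.013, 0.027, 0.028 and 0.034), with non-overlapping groups. They were called in 15, 11, 10 and 9 of the 15 leave-one-out fits, and none with the class term. Fabp4, a fatty acid binding protein of adipocytes, macrophages and capillary endothelium, had 2.64, 2.697, 3.57 and 2.79 FPKM in hyperoxia, against 5.495, 7.204, 6.25 and 10.4 FPKM in normoxia (log2 change -1.06, SE 0.14, adjusted p = 0.0027). The 10 adipocyte markers, Fabp4 among them, summed to 8.46 to 9.27 FPKM in hyperoxia and 13.1 to 18.6 FPKM in normoxia. Of the 10, 6 were under 1 FPKM in all 8 libraries: Adipoq and Lep were at 0, and Plin1, Cfd, Retn and Ucp1 reached at most 0.509. Pparg, Cidec and Plin4 had overlapping groups, with maxima of 4.86, 0.846 and 0.638 FPKM in hyperoxia and 7.79, 3.05 and 1.06 FPKM in normoxia. Adipose tissue as a source was not tested. Cyp4a14, a fatty acid hydroxylase, had 134 to 200.8 FPKM in hyperoxia and 207 to 288 FPKM in normoxia (log2 change -0.59, SE 0.13, adjusted p = 0.045, lost in 13 of 15 fits). It was the 1 gene called among 25 of peroxisomal and microsomal fatty acid oxidation, and its paralogue Cyp4a10, with which it can share reads, had a log2 change of -0.99 (adjusted p = 0.056). Vldlr, the receptor for very low density lipoprotein, averaged 0.817 ± 0.0897 FPKM in hyperoxia and 1.603 ± 0.249 FPKM in normoxia (SD, n = 4 each) and was the 1 gene called among 19 of the integrated stress response list. Vldlr reached 1 FPKM in normoxia livers only, the group through which it passed the filter. Of 20 apolipoproteins 1 fell, Apoc4, by 0.35 on the log2 scale, lost in 9 of 15 fits. Of 26 genes of mitochondrial fatty acid oxidation and ketogenesis, 18 of lipogenesis and 25 of cholesterol synthesis and uptake, 0 were called (limma; 3, 5 and 5 with an unadjusted p under 0.05). In the cholesterol list 21 of 25 changes were above 0 with a median of 0.17. Hmgcs1, an early enzyme of cholesterol synthesis, had 24.1 to 30.4 FPKM in hyperoxia and 17.9 to 22.2 FPKM in normoxia (adjusted p = 0.16).

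The lists of the urea cycle, serine and folate metabolism, the tricarboxylic acid cycle and antioxidant enzymes held 1 call. Of 19 urea cycle genes, 35 genes of serine, glycine, folate and methionine metabolism and 24 of the tricarboxylic acid cycle, 0 were called (limma; 2, 4 and 3 with an unadjusted p under 0.05). Among 38 NRF2 targets and antioxidant enzymes 1 fell, Hmox1. Sod3, the extracellular superoxide dismutase, and Gpx4, the peroxidase of lipid hydroperoxides, had log2 changes of -0.48 and -0.34, non-overlapping groups and adjusted p of 0.057 and 0.064. Rgs5, a pericyte marker, had 3.36, 3.19, 4.17 and 3.33 FPKM in hyperoxia, against 7.96, 4.41, 6.98 and 10.6 FPKM in normoxia (log2 change -0.86, SE 0.17, adjusted p = 0.032, lost in 5 of 15 fits). It was the 1 gene called among 17 stellate cell and fibroblast markers, whose median was 0.04.

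The C57 response was set against the BALBc response to see whether the strains share it. In BALBc 110 genes were called (0.907%; 47 higher, 0.387%, and 63 lower, 0.519%), 11 of them also called in C57, which is 8.66% of the C57 and 10% of the BALBc calls. In both strains Hamp and Hamp2 rose, and Eno1, Fabp4, Rgs5, Atp5k and Rnase4 fell. The other 4 changed in opposite directions. Among them Mug1 and Cyp2c70 rose in C57 and fell in BALBc, and Acot2, an acyl-CoA thioesterase of mitochondria, fell in C57 and rose in BALBc. The strain difference itself, the C57 change minus the BALBc change, was called for 102 of all genes (0.841%) and for 35 of the 127. That count of 102 was 29, 43 and 42 without BALBc hyperoxia 2, 3 and 4, 37 and 41 without BALBc normoxia 2 and 3, 41 and 46 without C57 hyperoxia 2 and 4, and 161 without C57 normoxia 4. Cyp2c70 had 145, 133, 121 and 162 FPKM in BALBc hyperoxia, against 287, 257 and 264 FPKM in BALBc normoxia (strain difference 1.48, SE 0.16, adjusted p = 0.00093). Mug1 had 48.3, 46.02, 61.5 and 59.9 FPKM in BALBc hyperoxia, against 123, 105 and 167 FPKM in BALBc normoxia (strain difference 2.32, SE 0.22, adjusted p = 0.00022). For both genes every hyperoxia liver lay above every normoxia liver in C57 and below every one in BALBc.

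The strains also stood at different levels. Marco was at 6.11 to 10.1 FPKM in BALBc hyperoxia and 6.18 to 7.62 FPKM in BALBc normoxia, below every C57 liver, with a BALBc log2 change of 0.06 (SE 0.27). Lyz2 was at 26.9 to 29.6 FPKM in BALBc hyperoxia and 24.2 to 39.03 FPKM in BALBc normoxia, and Tlr2 at 1.398 to 1.800 FPKM in BALBc hyperoxia and 0.603 to 1.34 FPKM in BALBc normoxia. For Marco and Lyz2 the C57 hyperoxia livers lay between the C57 normoxia livers and the BALBc livers. Serpina3k was far higher in BALBc than in any C57 liver, at 1124 to 1535 FPKM in BALBc hyperoxia and 1698 to 1971 FPKM in BALBc normoxia. Hamp had 67.8, 318, 302 and 339 FPKM in BALBc hyperoxia, against 2.68, 1.11 and 1.42 FPKM in BALBc normoxia, and the strain difference was -3.91 (SE 0.75, adjusted p = 0.027). The rise was thus smaller in C57, where normoxia livers already had more Hamp than any BALBc normoxia liver. The strain differences of Fabp4 and Rgs5 were -0.30 (SE 0.21) and 0.34 (SE 0.26) and did not pass. The ribosomal protein list had a BALBc median of 0.03 with 0 of 47 called lower, and the glycolysis list a median of -0.21 with 1, Eno1, called lower.

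**Figure D5:**
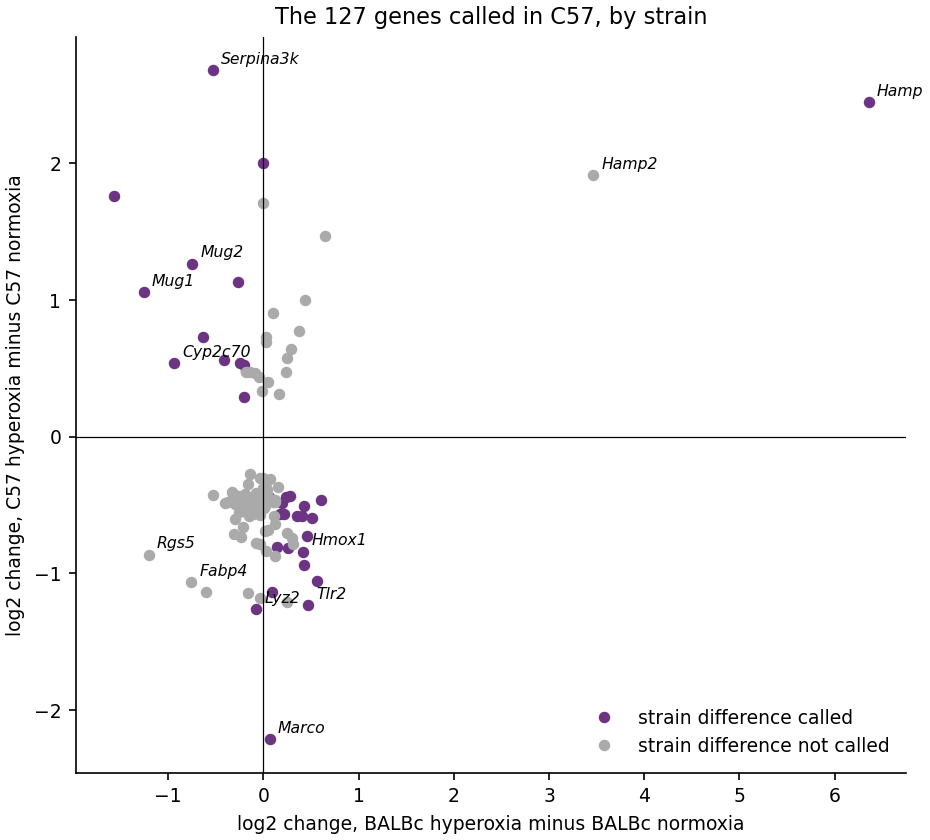
Log2 change in C57 (vertical axis) against log2 change in BALBc (horizontal axis), each hyperoxia minus normoxia on the log2(FPKM + 1) scale, for the 127 genes called in C57; purple points have a called strain difference. Hamp and Hamp2 lie far to the upper right, Mug1, Mug2 and Cyp2c70 to the upper left, and Marco at the bottom near a BALBc change of 0.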

How the data were processed

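Total RNA of 15 mouse livers was sequenced as bulk RNA-seq. The deposited values are FPKM per gene; per the submitters' processing notes, the tools named are HISAT2 2.0.5 and featureCounts 1.5.0-p3 and the build is GRCm38 (mm10). The sources used here do not state whether counting used strand. Of 54532 gene IDs, 54495 matched GENCODE M21 and 37 did not. FPKM are not counts, so no count test was run. Genes with FPKM of at least 1 in at least 3 of the 8 C57 libraries were tested on log2(FPKM + 1) with limma 3.58.1 (R 4.3.3), 1 mean per group over all 15 libraries, empirical Bayes with a variance trend, and Benjamini-Hochberg adjustment, called at 0.05. Python 3.11.15 was used for tables and figures. The limma test of C57 hyperoxia against C57 normoxia was tested on simulated data. Fragment numbers behind FPKM were recovered from the steps between low values and used only to describe depth and rare genes; intervals were not computed from them.

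Named genes are the 12 called protein-coding genes with the largest rise and the 12 with the largest fall at a mean of at least 2 FPKM in the higher group, every called member and up to 4 further members of each list described, the HIF subunits and sensors, Xist, and cell type markers where a statement turns on them. A few genes under this rule are not reported here. The members and gene lists were chosen with earlier results of these data known. Alternatives were the pseudocount, the filter, the scaling, the variance model, a replicate block, an Xist term, a library class term, the C57 libraries alone, and each library left out. Same-numbered libraries did not deviate together: 1 of 21 pairs correlated above 0.1, and 0 of 4 in C57.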

Additional observations from a re-analysis of the deposited data

Results flagged for a closer look

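For 22 named genes the C57 change differed from the BALBc change (limma strain-by-oxygen interaction, adjusted p under 0.05), and each value below is the C57 log2 change minus the BALBc log2 change. Among genes of macrophages, innate sensing and haem breakdown these were Marco (-2.28), Lyz2 (-1.18), Hmox1 (-1.26), Tlr2 (-1.70), Ncf4 (-1.36), Spic (-0.95), Fgr (-1.07) and Cd209f (-1.62), all more negative in C57. Among enzymes these were Ces3a (1.36), Cyp2c70 (1.48), Ak4 (-0.93), Cyp4a14 (-1.10), Fmo1 (0.50), Cyp4a10 (-1.93) and Cyp4f14 (1.99). The others were Mug1 (2.32), Serpina3k (3.21), Mug2 (2.02), Rpsa (-0.50), Hamp (-3.91), Rgl3 (0.98) and Dhx58 (1.18).

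In 10 of 244 groups of 4 libraries, 1 library stood apart from the other 3 by Dixon's criterion at the 95% level, which chance alone flags in about 1 in 20 groups. Aldoa was at 19.98 FPKM in C57 hyperoxia 1, against 24.9 to 25.1 FPKM in the other libraries of its group. Rps29 was at 195 FPKM in C57 normoxia 4, against 174 to 175 FPKM in the other libraries of its group. Apoc4 was at 219.5 FPKM in C57 hyperoxia 2, against 176 to 182 FPKM in the other libraries of its group. Apoc4 was at 228 FPKM in C57 normoxia 1, against 244 to 245 FPKM in the other libraries of its group. Rpl12 was at 55.1 FPKM in C57 hyperoxia 3, against 60.9 to 61.7 FPKM in the other libraries of its group. Ak4 was at 17.3 FPKM in C57 hyperoxia 3, against 12.99 to 13.6 FPKM in the other libraries of its group. Plin5 was at 16.2 FPKM in C57 normoxia 4, against 21.5 to 22.5 FPKM in the other libraries of its group. Pzp was at 763 FPKM in C57 hyperoxia 4, against 875 to 885 FPKM in the other libraries of its group. Smad7 was at 4.83 FPKM in C57 hyperoxia 2, against 6.44 to 6.72 FPKM in the other libraries of its group. Egln2 was at 27.03 FPKM in C57 hyperoxia 1, against 28.7 to 28.99 FPKM in the other libraries of its group.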

How the results depend on the processing

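The C57 contrast called 127 genes (32 higher, 95 lower), of which 56 fall under the rule for named genes, and 102 genes had a called strain difference. With the many-singletons class as a term, 13 genes were called (4 higher, 9 lower), 10 genes under that rule were called and 26 had a called strain difference. On the 8 C57 libraries alone, 33 genes were called (7 higher, 26 lower), 20 genes under that rule were called, and no strain difference could be computed. With array weights, 48 genes were called (8 higher, 40 lower), 27 genes under that rule were called and 42 had a called strain difference. With no filter on low values, 73 genes were called (25 higher, 48 lower), 28 genes under that rule were called and 29 had a called strain difference. With no variance trend, 78 genes were called (19 higher, 59 lower), 33 genes under that rule were called and 76 had a called strain difference. With an Xist term, 71 genes were called (16 higher, 55 lower), 36 genes under that rule were called and 75 had a called strain difference. With median scaling, 95 genes were called (33 higher, 62 lower), 43 genes under that rule were called and 103 had a called strain difference. With quantile normalization, 139 genes were called (54 higher, 85 lower), 41 genes under that rule were called and 116 had a called strain difference. With a replicate block, 88 genes were called (22 higher, 66 lower), 37 genes under that rule were called and 77 had a called strain difference. In the 15 fits that left out 1 library, 38 to 249 genes were called, 8 to 105 higher and 30 to 144 lower, 23 to 51 genes under that rule were called, and 29 to 161 had a called strain difference. A pseudocount of 0.1 and a filter at 5 FPKM left these counts within 1.5 times. The fit on the 7 many-singletons libraries alone, chosen after seeing the data, called 0 genes in each count (limma, 1757 at an unadjusted p under 0.05 in C57). Same-numbered libraries are not shown to be pairs, so the replicate block is given as a setting only. None of the 56 reversed its sign in any of these settings that tested it. Of the named genes that were not called, 7 changed sign, none with a call. mt-Atp6, at a log2 change of 1.35, was at -0.18 on the 7 many-singletons libraries. Egln2, at a log2 change of -0.086, was at 0.024 with the class term. Hif1a, at a log2 change of 0.076, was at -0.091 with the class term, -0.17 on the 7 many-singletons libraries and -0.0045 to 0.16 with 1 library left out. Epas1, at a log2 change of 0.04, was at -0.0065 to 0.11 with 1 library left out. Cul2, at a log2 change of 0.027, was at -0.017 to 0.083 with 1 library left out. Eloc, at a log2 change of 0.02, was at -0.17 with the class term, -0.12 on the 7 many-singletons libraries and -0.10 to 0.093 with 1 library left out. Hif1an, at a log2 change of -0.0032, was at 0.021 with an Xist term, 0.032 with array weights, 0.017 with median scaling, 0.024 with quantile normalization and -0.082 to 0.12 with 1 library left out. The causes of these shifts were not tested. Values of a few fragments limit what can be said of genes near 0 FPKM.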
